A study of Mus musculus with 8 samples.

Results

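Of the chromatin regions that were open in mouse cardiac progenitors at day 5 and still open at day 7 in control cells, 1069 were not listed after GLI1 was induced. They are called control-kept regions here. They were chosen by overlap of 3 ATAC-seq peak lists: overlapping peaks of a list were merged on chromosomes 1 to 19, and a day 7 (D7) control region was taken if it shared at least 1 base with a day 5 (D5) region and none with a D7 GLI1 region. They make up 2.82% of the 37973 merged D7 control regions, 6.32% of the 16922 that overlapped a D5 region, and 361.05 kb of sequence. The D5 list held 38281 regions and the GLI1 list 42192. All 3 lists entered the rule, so the number of control-kept regions and their folds are descriptions.

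ATAC-seq marks open DNA by the insertion of sequencing adapters by the Tn5 transposase. All 8 libraries came from mouse embryonic stem cells of the A2Lox.cre strain, line GLI1-FTA, differentiated in culture to cardiac progenitors, and the labels describe 1 line. Both control groups, D5 (2 libraries) and D7 (3 libraries), were untreated; the GLI1 group (D7 GLI1 OE, 3 libraries) received doxycycline at 500 ng/ml for 48 hours, from D5 to D7. Each group is represented by 1 pooled peak list, so no spread between libraries can be given, and doxycycline and GLI1 cannot be told apart. In such bulk samples, fewer cells with a region open and less open DNA per cell cannot be told apart either. The D7 control list names no day, and its assignment to D7 is inferred from its pairing with the doxycycline list. Of 9 cardiac progenitor marker genes, 7 had an annotated start site in the table used, and all 7 had a D7 control region within 1 kb of it; 6 had a region there at D5 and 6 with GLI1. Markers of other cell types (endothelium, nerve, endoderm, paraxial mesoderm, pluripotent cells) had one in 4 of 8 cases in every list (Tal1, Sox1 and Foxa2, with Tek at D5 and Tbx6 at D7), and Pou5f1 and Nanog, the pluripotency factors, had none.

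GLI1 is a zinc finger transcription factor that acts at the end of the Hedgehog pathway, where binding of a Hedgehog ligand to its receptor frees Smoothened and changes the activity of GLI proteins. In the embryo, Hedgehog signalling acts on second heart field progenitors before they differentiate. Regulatory regions in open chromatin are mainly promoters, which are often rich in CpG dinucleotides, and enhancers, which lie away from start sites and are open in fewer cell types.

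Control-kept regions that overlap the promoter window of an annotated start site are shown by sequence first. The genes shown were chosen after their values were seen and include some of heart development. The share of heart genes among all genes with such a window was not counted. The windows shown differed in CpG content. In all, 47 control-kept regions overlapped 48 promoter windows of 47 genes. A window runs from 250 bases before to 50 bases after a start site, in the direction of the gene. Start sites are those in the RefSeq table of build GRCm38.p6, the build that mm10 corresponds to. The overlap could be as small as 2 bases (Diras1) and need not cover the start site. The summit lay inside the window in 33 of the 48 cases. The first 5 windows below have their CpG dinucleotides in capitals. Nkx2-5 encodes a homeodomain factor of cardiac progenitors (chr17:26841516-26841815, minus strand), Mylk3 the cardiac myosin light chain kinase (chr8:85365275-85365574, minus strand), and Tcf21 a basic helix-loop-helix factor of the epicardium (chr10:22820094-22820393, minus strand). Hoxa5 is a Hox gene (chr6:52204538-52204837, minus strand), and Wnt9b encodes a Wnt ligand (chr11:103749772-103750071, minus strand).
Nkx2-5: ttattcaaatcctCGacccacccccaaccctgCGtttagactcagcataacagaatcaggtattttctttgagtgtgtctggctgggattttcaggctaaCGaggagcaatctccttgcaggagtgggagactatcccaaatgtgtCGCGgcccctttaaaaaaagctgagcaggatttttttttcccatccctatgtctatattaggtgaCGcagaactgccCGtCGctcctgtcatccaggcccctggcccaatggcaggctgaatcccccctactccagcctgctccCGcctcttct
Mylk3: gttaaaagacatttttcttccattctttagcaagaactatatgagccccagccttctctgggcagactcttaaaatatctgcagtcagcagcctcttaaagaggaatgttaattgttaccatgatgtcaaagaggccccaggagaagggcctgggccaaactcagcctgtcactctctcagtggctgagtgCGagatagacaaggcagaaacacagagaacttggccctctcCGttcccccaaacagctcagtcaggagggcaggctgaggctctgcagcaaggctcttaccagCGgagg
Tcf21: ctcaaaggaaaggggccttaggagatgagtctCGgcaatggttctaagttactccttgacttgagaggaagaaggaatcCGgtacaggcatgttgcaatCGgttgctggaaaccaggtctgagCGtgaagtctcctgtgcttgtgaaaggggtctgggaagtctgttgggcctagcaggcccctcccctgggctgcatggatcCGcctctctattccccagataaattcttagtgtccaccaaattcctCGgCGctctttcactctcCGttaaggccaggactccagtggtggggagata
Hoxa5: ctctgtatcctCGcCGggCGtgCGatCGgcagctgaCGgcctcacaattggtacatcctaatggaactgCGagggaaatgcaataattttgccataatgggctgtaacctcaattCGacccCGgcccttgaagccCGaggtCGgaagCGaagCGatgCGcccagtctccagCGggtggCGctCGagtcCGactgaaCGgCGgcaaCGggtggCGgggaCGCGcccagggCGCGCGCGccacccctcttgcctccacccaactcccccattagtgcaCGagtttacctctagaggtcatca
Wnt9b: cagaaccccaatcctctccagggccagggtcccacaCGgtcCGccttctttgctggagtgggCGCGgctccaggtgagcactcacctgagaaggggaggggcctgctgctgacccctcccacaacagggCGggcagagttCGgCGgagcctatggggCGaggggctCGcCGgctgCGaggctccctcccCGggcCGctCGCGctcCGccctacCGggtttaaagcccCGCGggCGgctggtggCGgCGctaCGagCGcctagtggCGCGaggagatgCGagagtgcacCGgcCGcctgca

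The windows of Mylk3, Tcf21 and Nkx2-5 held 3, 8 and 9 CpG dinucleotides, and those of Hoxa5 and Wnt9b 29 each. In 3 of these genes the start site lay inside the RefSeq gene interval: by 3.42 kb in Nkx2-5, 21.0 kb in Mylk3 and 25.5 kb in Wnt9b. One window held the letters of the GLI binding sequence, GACCACCCA or its reverse TGGGTGGTC, in capitals below. It belongs to Nmur2, a neuromedin U receptor gene (chr11:56040938-56041237, minus strand), where the letters begin 72 bases before the start site. The control-kept region (56041025 to 56041254) overlapped this window but did not reach the start site. Nmur2 was named after its sequence was seen.
Nmur2: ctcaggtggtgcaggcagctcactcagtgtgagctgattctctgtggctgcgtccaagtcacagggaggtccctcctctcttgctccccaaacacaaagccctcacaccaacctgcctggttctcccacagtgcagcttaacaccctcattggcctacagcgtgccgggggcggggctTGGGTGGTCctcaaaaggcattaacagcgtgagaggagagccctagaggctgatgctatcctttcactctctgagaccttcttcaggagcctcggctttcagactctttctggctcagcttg

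At Nkx2-5 the control-kept region (chromosome 17, 26841395 to 26841643) had a fold of 3.24 at D7 in control and of 5.43 at D5, where fold is the peak caller's enrichment of the summit over background. The nearest region of the GLI1 list lay 22.8 kb away. A further D7 control region in the gene (26839272 to 26839488, fold 2.88) was absent at D5 and with GLI1. Within 10 kb of the gene the control list thus held 2 regions and the GLI1 list none. Both were weak, and neither was left at a −log10 q of at least 5. Absence at such folds was common: under 3.5, 40.7% of all D7 control regions open at D5 were absent with GLI1. Of those not open at D5, 72.6% were absent.

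Mylk3 had a stronger region at its start site (chromosome 8, 85365296 to 85365722), with folds of 6.12 at D7 and 5.09 at D5, and the nearest GLI1 region lay 29.3 kb away. The region at Hoxa5 (chromosome 6, 52204484 to 52204807) had folds of 5.40 and 4.55, but a GLI1 region lay only 339 bases from it. The region at Wnt9b had 3.78 and 7.25, and that at Tcf21 3.42 and 3.49. Mylk3 and Tcf21 had 0 control-kept regions when a −log10 q of at least 5 was required in every list. At Tal1, a factor of blood and endothelial progenitors, the region over the start site had 3.42 and 3.62, with a GLI1 region 0.667 kb away.

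Promoter windows overlapped by control-kept regions were poorer in CpG than those overlapped by regions open in all 3 lists. The ratio of observed to expected CpG had a median of 0.47 in the 48 windows and of 0.80 in the 10607 windows overlapped by regions open in all 3 lists. It reached 0.6 in 39.6% of the 48 windows (Wilson 95% interval 27.0 to 53.7) and in 81.1% of the 10607 (80.3 to 81.8). Among the 124 windows overlapped by regions found in D7 control alone it reached 0.6 in 14.5% (9.38 to 21.8), and among the 7701 windows that no list covered in 5.91%. Sequence was not used by the rule, and these intervals do not overlap those of the control-kept regions, though they cover counting error only. CpG was not compared within bins of fold. The median D7 control fold was 4.14 over all control-kept regions and 17.5 over those open in all 3 lists. Whether fold accounts for the difference in CpG was not tested.

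**Figure D1:**
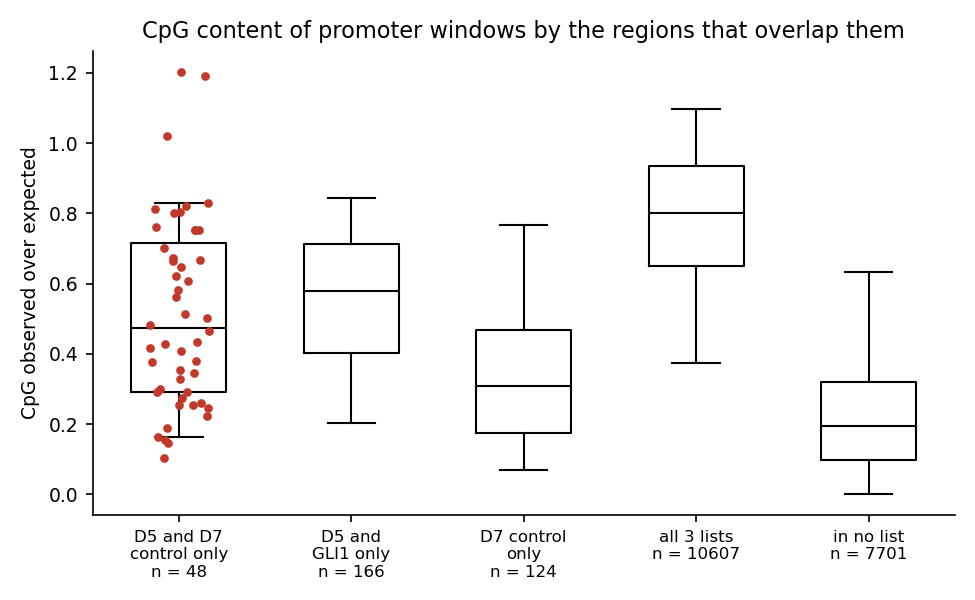
Ratio of observed to expected CpG in promoter windows of 300 bases, grouped by the class of region that overlapped them. Boxes show quartiles and the median, whiskers the 5th and 95th percentiles, and red points the 48 windows under control-kept regions, whose median of 0.47 lies below the 0.80 of windows open in all 3 lists.

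Windows under regions open at D5 and with GLI1 but not in D7 control, called GLI1-kept regions and built by the same rule with the D7 lists exchanged, had a median ratio of 0.58. It reached 0.6 in 45.8% of 166 windows (38.4 to 53.4), an interval that overlaps that of the control-kept regions.

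Short sequence motifs were searched on both strands of the same windows. The GC-rich SP/KLF letters GGGCGG were in 22 of 48 windows (45.8%, 32.6 to 59.7) against 71.3% of windows open in all 3 lists and 47.0% of all 20062 windows in the table on chromosomes 1 to 19 other than 18. The CCAAT box was in 41.7% against 38.1% of all windows. The E-box CANNTG was in 79.2% (65.7 to 88.3) against 68.7%, an interval that includes the share of all windows. It was in 76.6% of windows overlapped by regions found in D7 control alone and in 80.1% of windows that no list covered. The AP-1 letters TGANTCA were in 10.4% (4.53 to 22.2) against 7.06%. The GATA letters AGATAA were in 8.33% against 9.58%, the TEAD letters GGAATG in 14.6% against 13.4%, the TATA box TATAAA in 8.33% against 12.7%, and AAGTG, a core of NKX2-5 sites, in 43.75% against 45.0%. The GLI letters, in 1 of the 48, were in 0.174% of all windows (35 windows). The forkhead letters TGTTTAC were in 0 of 48 windows, which allows a share of up to 6.25% (3 counts of 48; the Wilson limit is 7.41%), and in 3.04% of all windows. A match is a description of the letters in these windows, and motifs can overlap, as AAGTG does with some E-boxes.

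Most control-kept regions lay away from start sites and gene ends. Their summits were within 1 kb of the end of a protein-coding gene in 7.86% of cases (84 of 1069; 6.39 to 9.63), where the end is either limit of the gene interval. Regions found in D7 control alone were alike in this, with 7.11% (6.65 to 7.61), while for regions open in all 3 lists the share was 61.4% (60.7 to 62.2). In 45.4% (42.4 to 48.4) the summit lay inside a gene interval, and in 17.5% (15.3 to 19.9) it was more than 100 kb from any protein-coding gene, against 57.2% and 2.95% of regions open in all 3 lists. Of regions found in D7 control alone, 15.5% (14.9 to 16.2) were that far from a gene. The median distance to an annotated start site was 59.3 kb, taken over the 1036 control-kept regions outside chromosome 18; start sites were at hand for 79.9% of protein-coding genes, so true distances can be shorter.

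GLI1-kept regions, the mirror class, were nearer to genes. Their share within 1 kb of a gene end was 12.9% (284 of 2203; 11.6 to 14.4), and the control-kept share was lower by 5.03 percentage points (interval of the difference −7.11 to −2.82). With annotated start sites the shares were 5.60% and 10.3%, a difference of −4.71 points (−6.55 to −2.72). Distances over 100 kb to any gene were found for 14.6% of GLI1-kept regions, and the control-kept share of 17.5% was higher by 2.92 points (0.272 to 5.70).

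The difference at gene ends had the same sign in every bin of fold, each class taken by the fold in its own D7 list. Between folds of 3.5 and 5 the shares were 7.61% (5.55 to 10.4) for control-kept and 13.6% (11.7 to 15.8) for GLI1-kept regions, and between 7 and 10 they were 2.82% (0.776 to 9.70) and 12.2% (8.03 to 18.1). Under 3.5, between 5 and 7 and at 10 and over, the interval of the difference included 0. Weak regions open in all 3 lists differed more from both: under a fold of 3.5, 31.1% (27.0 to 35.5) lay at gene ends against 10.1% (7.21 to 14.0) of control-kept regions. At a −log10 q of at least 5 in every list, the shares were 5.65% (3.89 to 8.15) for control-kept and 17.1% (14.97 to 19.5) for GLI1-kept regions.

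**Figure D2:**
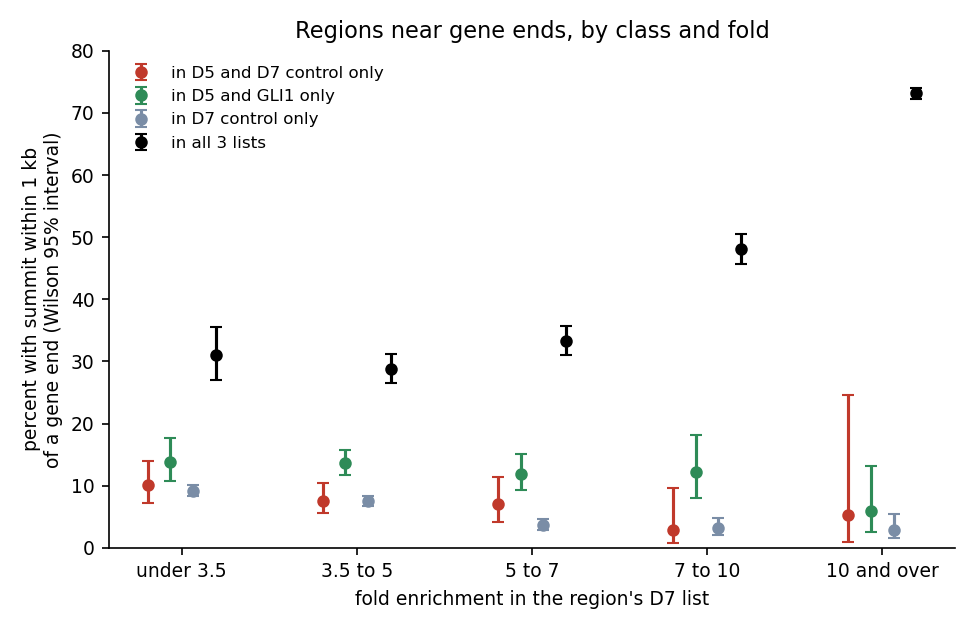
Percent of regions with the summit within 1 kb of a gene end, by class and by the fold in the D7 list (the GLI1 list for green points, the control list for the others); bars are Wilson 95% intervals. Regions in all 3 lists (black) lie between 28.8% and 73.1%, and control-kept regions (red) at or below 10.1%.

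Most control-kept regions were weak and narrow in both lists that held them. Their fold in the D7 control list ran from 2.52, the lowest of that list, to 18.5, with quartiles of 3.42, 4.14 and 5.04. Regions found in D7 control alone had a median of 3.78, and regions open in all 3 lists one of 17.5. Their width ran from 200 to 1201 bp, with a median of 278 bp against 1014 bp in regions open in all 3 lists, and 90.3% were made of 1 peak against 43.5%. Regions found in D7 control alone were as narrow, with a median of 251 bp and 91.6% made of 1 peak, so low fold and width are not particular to the control-kept regions. There were 289 (27.0%) with at least 4.91, which is 2 times the lowest fold of the GLI1 list, and 19 reached 10.

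In the D5 list, a single scale for every class, the regions that control-kept regions overlapped had folds from 2.80 to 19.04 and a median of 5.35. The D5 partners of GLI1-kept regions had the same middle, with a median of 5.36, whereas those of regions open in all 3 lists had 8.30. The D5 region was 124 bp wide, the shortest in that list, for 14.97% of control-kept regions and 3.29% of regions open in all 3 lists. The D7 control summit lay inside a D5 region in 811 cases (75.9%), and the median distance between the D5 and D7 summits was 58 bp. The background used for each list was not given in the sources used here, so folds at D5 and D7 are not compared in size. The same limit holds between the D7 control and D7 GLI1 lists. Where their folds stand side by side or share limits of bins, equal folds need not mean equal signal.

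The folds of a control-kept region in the D5 and D7 control lists were nearly unrelated in rank, with a Spearman rho of 0.01 across the 1069 regions. Across the 15853 regions open in all 3 lists rho was 0.63. Both are descriptions across regions of the same pooled lists, and the control-kept regions span a narrower range of folds. Whether that range accounts for the low rho was not tested.

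**Figure D3:**
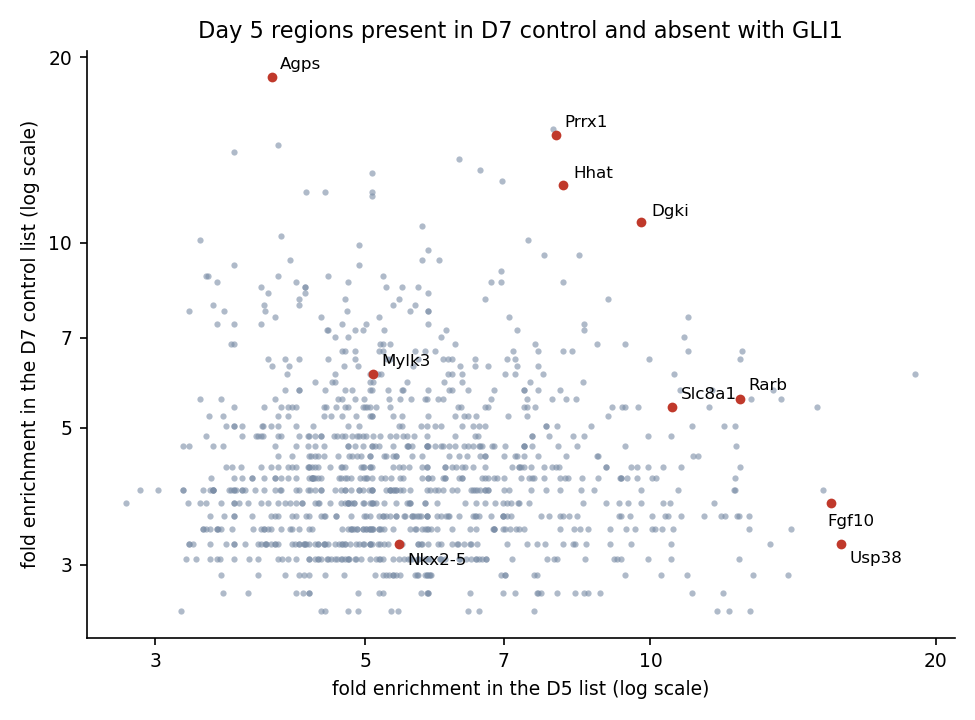
Fold enrichment of the 1069 control-kept regions in the D5 list (x, log scale) and in the D7 control list (y, log scale), 1 point a region, with some named by the nearest gene in red. The regions strongest at D7, such as that near Agps with 18.5, are not those strongest at D5, such as those at Usp38 and Fgf10 with 15.9 and 15.5.

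The share of D5-and-control regions that was absent with GLI1 was smaller the higher the fold. It was 40.7% (307 of 754; 37.3 to 44.3) under a fold of 3.5, 24.5% (22.7 to 26.5) from 3.5 to 5, 11.6% (10.2 to 13.2) from 5 to 7, 4.08% (3.25 to 5.12) from 7 to 10 and 0.176% (19 of 10787) at 10 and over. D7 control regions that were not in the D5 list were absent with GLI1 more often, at 52.4%, and also at each of these levels. Their shares were 72.6%, 59.6%, 45.2%, 34.5% and 12.4% in the same order.

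The reverse share, of D5-and-GLI1 regions that were absent in control, was 12.2% (2203 of 18012), so GLI1-kept regions were 2.06 times as many. The GLI1 list was also the longer one. With the D7 lists held to equal lengths there were 1206 control-kept regions (7.13%) and 2022 GLI1-kept regions (11.4%). These counts follow from the rule and from 1 list a condition, and are given with no test.

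**Figure D4:**
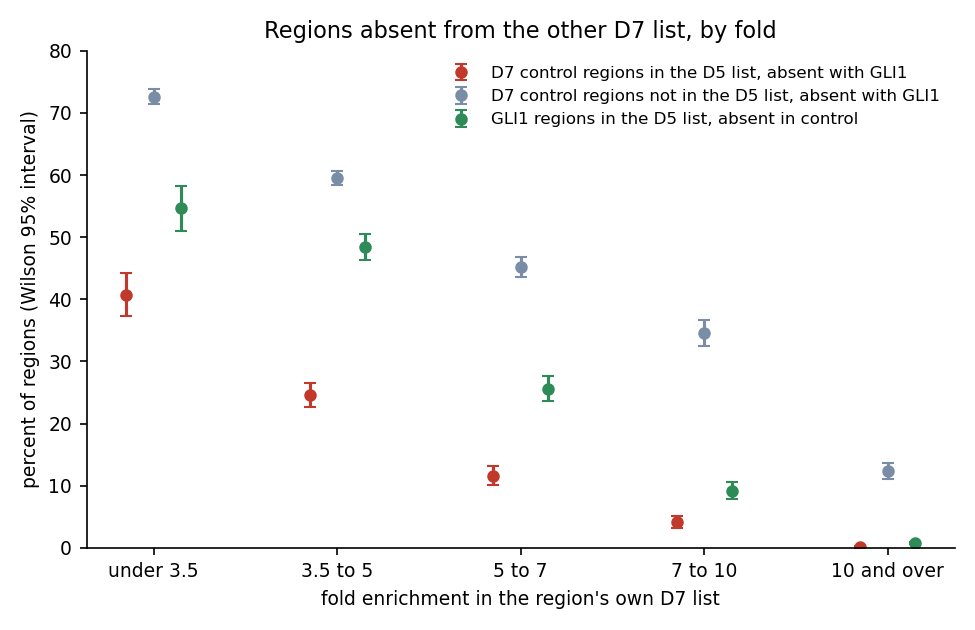
Percent of D7 regions absent from the other D7 list, by the fold in their own list, with Wilson 95% intervals. Control regions that were open at D5 (red) go from 40.7% under 3.5 to 0.176% at 10 and over, and lie below control regions not open at D5 (blue) and GLI1 regions open at D5 (green) in each bin.

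By fold at D5, both shares were smaller among stronger regions. At D5 folds under 4, 17.8% (134 of 753) of D5-and-control regions were absent with GLI1, and 29.9% (255 of 853) of D5-and-GLI1 regions were absent in control. From 4 to 6 these were 13.4% (544 of 4068) and 25.5% (1209 of 4739), and from 6 to 9 they were 5.61% and 11.2%. At D5 folds of 9 and over they lay close together, at 1.48% (103 of 6971; 1.22 to 1.79) and 1.89% (132 of 6995; 1.59 to 2.23).

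The 12 control-kept regions with the highest D7 control fold, all of at least 12.1, lay outside genes, and 3 of them more than 100 kb from any; a further region on chromosome 16 tied with the last. The first (chromosome 2, 75772310 to 75773096) reached 18.5 at a distance of 59.5 kb from Agps, an enzyme of ether lipid synthesis; its D5 fold was 3.99. The next (chromosome 13, 17854549 to 17855749) had 15.3 and lay 25.6 kb from Rala, a small GTPase gene, with a D5 fold of 7.88. The region near Prrx1 (chromosome 1, 163176714 to 163177632), a homeobox gene of mesenchyme, had 14.9 at D7 and 7.96 at D5 and lay 67.9 kb from the gene.

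The others of this group were near Tcerg1l (14.4), Slc7a14 (13.7), Rasl11b (13.1), Nek10 (12.96), Hhat (12.4) and Rhobtb2 (12.1), or had no gene within 100 kb (14.0, 12.6 and 12.1). Their D5 folds ran from 3.63 to 8.08. The gap to the nearest GLI1 region ran from 1.23 kb, near Rasl11b, to 138 kb. Rasl11b, a gene for a Ras-like GTPase, had a second control-kept region 22.9 kb from the gene, with folds of 6.30 at D7 and 6.74 at D5.

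Of those 12, the region near Hhat had the highest D5 fold, close to those near Prrx1 and Rala. Hhat encodes the acyltransferase that adds palmitate to Hedgehog ligands. The region (chromosome 1, 192796056 to 192796827) had folds of 12.4 at D7 and 8.08 at D5, shared 420 bases with its D5 region and lay 25.3 kb from the gene. A GLI1 region lay 3.80 kb away with a fold of 2.98. Hhat also had 2 GLI1-kept regions, so D5 regions around this gene were divided between the D7 conditions.

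The 8 regions with the highest D5 fold, from 13.7 to 19.04, were mostly weak at D7, with control folds from 2.88 to 6.12. The first (chromosome 9, 92805509 to 92805948) had 19.04 at D5 and 6.12 at D7, with no gene within 100 kb. The region in Fgf10 (chromosome 13, 118758996 to 118759346) had 15.5 at D5 and 3.78 at D7. Others were near Usp38 (15.9 and 3.24), Gulp1 (14.97 and 5.40) and Aipl1 (13.7 and 5.58), in Slc4a4, a bicarbonate transporter gene (14.1 and 3.42), and on chromosome 17 more than 100 kb from a gene (14.0 and 2.88).

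The strongest control-kept regions with the summit within 1 kb of a gene end were at Abca16, a lipid transporter gene, with folds of 10.1 at D7 and 3.34 at D5, and at Dnlz with 9.72 and 5.82. The region at Vcam1, which encodes an adhesion molecule of the endothelium and epicardium (chromosome 3, 116129334 to 116129795), had 8.46 and 3.88. Gmfg-ps (6.48 and 7.19), Gbp10 (5.94 and 6.32), Gm42372 (5.58 and 8.34), Tnfaip8l3 (5.58 and 4.73) and C1qtnf12 (5.40 and 9.12) followed. Among these 8, Tnfaip8l3 had a GLI1 region 212 bases away, Gm42372 one 2.18 kb away, and the others none nearer than 9.85 kb.

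Single genes rarely held more than 1 control-kept region. Within 100 kb, 882 of the 1069 regions had a nearest gene, and these were 814 genes: 755 had 1 such region, 51 had 2 and 8 had 3 or 4. Long genes collect more regions, and the 8 genes with 3 or 4 spanned from 110 kb (Bcar3) to 1106 kb (Auts2). Rarb, Bcar3, Stc1 and the others described next were chosen for having the most control-kept regions. High shares among their D5-and-control regions follow from that choice.

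Rarb, the gene of retinoic acid receptor beta, had the most, 4 of its 6 D5-and-control regions. Over all genes the share was 5.42%. All lay inside the gene, on chromosome 14. The region at 16434511 to 16434710 had folds of 4.32 at D7 and 4.39 at D5, that at 16598011 to 16598339 3.60 and 10.8, that at 16603257 to 16603598 7.74 and 5.83, and that at 16695540 to 16695993 5.58 and 12.4. The GLI1 list came no nearer than 9.95 kb to any of them. It held 12 regions nearest to Rarb against 10 in control. A region open in all 3 lists (16575138 to 16575745 in control) had folds of 8.10 in control and 8.78 with GLI1. At a −log10 q of at least 5 Rarb had 2, and when regions went to the nearest gene end it had 1; it is 651 kb long.

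**Figure D5:**
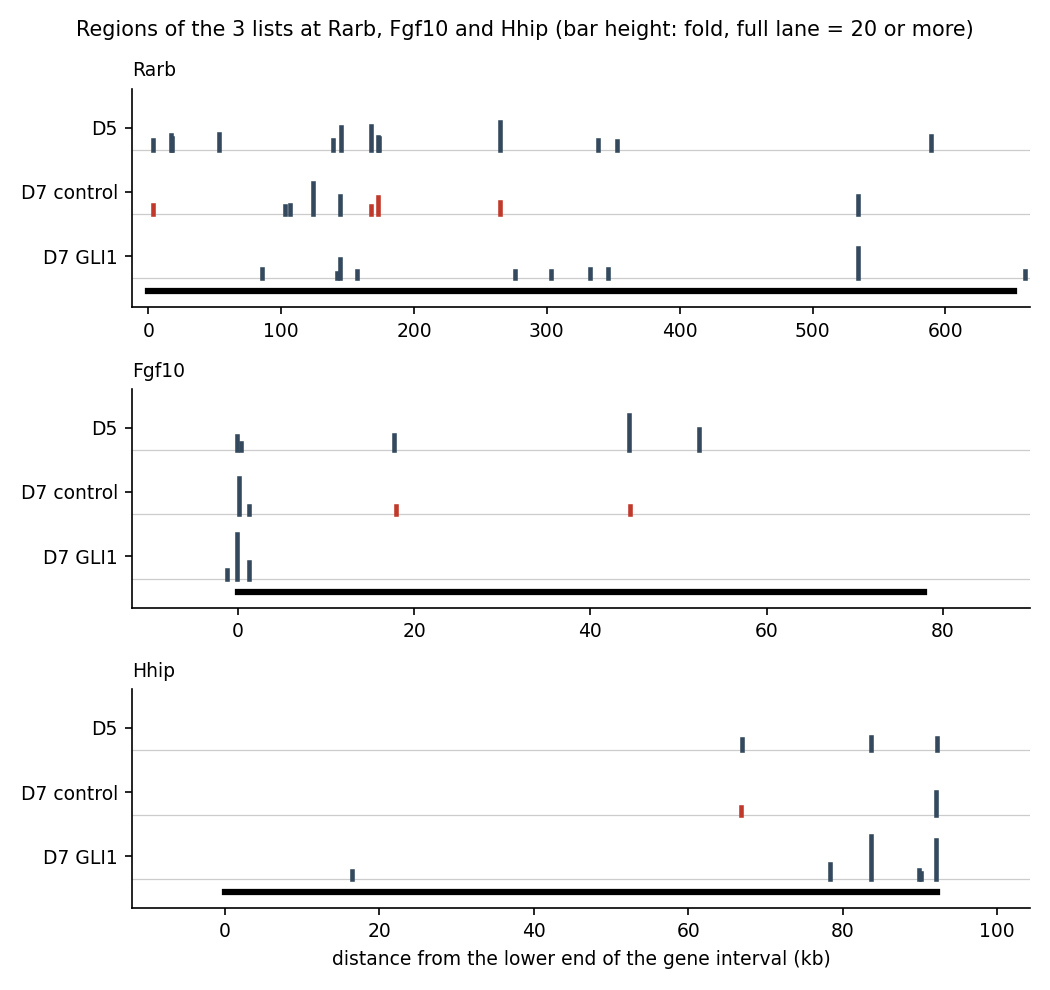
Regions of the D5, D7 control and D7 GLI1 lists along Rarb, Fgf10 and Hhip, by distance from the lower end of the gene interval in kb; bar height is the fold in that list, capped at 20, and the black line is the gene. Red bars mark control-kept regions, which are 4 at Rarb, 2 at Fgf10 and 1 at Hhip, with a D5 bar above and no GLI1 bar below.

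Bcar3, an adaptor gene of integrin and growth factor signalling, had 3 control-kept regions among 5 D5-and-control regions on chromosome 3. They were at 122474168 to 122474451 (folds 5.04 at D7 and 7.76 at D5), at 122483457 to 122483718 over an internal start site (3.96 and 6.25) and at 122509611 to 122510244 (8.82 and 5.22). A further 8 D7 control regions at Bcar3 were absent both at D5 and with GLI1, of which the strongest (122517547 to 122518881) had a fold of 22.1. Of all D7 control regions not in the D5 list, 52.4% were absent with GLI1, and 12.4% of those at folds of 10 and over. Both regions at the beginning of the gene interval were in all 3 lists, and that at 122419668 to 122420305 had 9.36 in control and 8.78 with GLI1.

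The other genes with 3 were Frmd4a, a scaffold gene, with D7 folds of 8.46, 10.1 and 4.32; Auts2, with 3.24, 9.54 and 4.14; and Msi2, an RNA-binding protein gene, with 5.76, 5.58 and 3.06. Zfhx3, a homeobox factor gene, had 4.50, 3.24 and 4.68, Prr5l 3.06, 3.60 and 4.32, and Vps13d 3.96, 2.52 and 3.96. Vps13d at a −log10 q of at least 5 had 0 control-kept regions, Auts2, Frmd4a and Prr5l 1 each, and Bcar3, Msi2 and Zfhx3 2 each. When regions went to the nearest gene end, Auts2, Frmd4a, Zfhx3 and Vps13d had 1 each and Msi2 2. Frmd4a also had 2 GLI1-kept regions and Msi2 1, and Auts2, Zfhx3, Prr5l and Vps13d had none. A GLI1 region lay 134 bases from 1 of the 3 in Zfhx3 and 221 bases from 1 in Msi2. Stc1, which encodes the hormone stanniocalcin 1, had 2 regions with D7 folds of 6.84 and 9.0 and D5 folds of 9.40 and 6.95, and these were both of its D5-and-control regions.

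Genes with a control-kept region also had GLI1-kept regions in 187 of 814 cases (23.0%), and these were 11.4% of the 1636 genes with a GLI1-kept region. Of all 11869 genes with a D5-and-control region, 9.71% had a GLI1-kept region. Long genes collect more regions of each kind, and length was not adjusted for. In distance, 12.3% of control-kept regions lay within 50 kb of a GLI1-kept region, close to the 11.7% of regions open in all 3 lists.

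The Hedgehog pathway genes had 3 control-kept regions among 42 D5-and-control regions (7.14%; 2.46 to 19.01), near the 5.42% of all genes within 100 kb, and 5 GLI1-kept among 39. The 3 were at Hhat, described above, Hhip and Cdon. At a −log10 q of at least 5 there was 1 among 29, beside 3.51% of all D5-and-control regions, and Hhip had 0. Hhip encodes an inhibitor that binds Hedgehog ligands and is itself a target of the pathway. Its control-kept region, inside the gene (chromosome 8, 80032595 to 80032847), had folds of 3.24 at D7 and 4.92 at D5. Elsewhere in the gene, a D5 region at 80049215 to 80049783 was present with GLI1, with a fold of 19.1, and absent in control. At the upper limit of the gene interval a region (80057565 to 80058263 in control) was open in all 3 lists, with 10.1 in control and 17.2 with GLI1. Cdon, a Hedgehog co-receptor gene, had a region 49.1 kb away with 4.86 and 4.67, and 1 GLI1-kept region.

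No D5-and-control region at Gli1 (3), Ptch1 (3) or Foxf1 (1) was absent with GLI1. Over all genes the share absent was 5.42%, so a count of none among so few regions does not set these genes apart. Ptch1 encodes the Hedgehog receptor, and Foxf1 a forkhead factor of mesenchyme. At Gli1 itself the 3 control regions that overlapped D5 regions had folds of 3.96, 13.3 and 11.2 in control, and were covered with GLI1 by regions of 12.99 and 31.9. Signal of the induced copy and of the chromosomal gene cannot be told apart there.

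Genes of the contractile apparatus and of calcium handling had 5 control-kept regions among 19 D5-and-control regions (26.3%; 11.8 to 48.8), and 1 GLI1-kept region among 14 D5-and-GLI1 regions. The share over all genes was 5.42%. The lists of genes were chosen with earlier results of these data known, and 5 regions make a small count. Slc8a1, the sodium-calcium exchanger gene, had a region inside the gene (chromosome 17, 81676354 to 81676625) with folds of 5.40 at D7 and 10.5 at D5. That near Tpm1, a tropomyosin gene, had 4.68 and 6.64, and lay 28.5 kb from the gene. Actn2 (alpha-actinin 2; 3.24 and 3.57), Myl7 (the atrial myosin light chain; 3.06 and 5.18) and Cacna1c (an L-type calcium channel; 3.06 and 4.60) had weaker ones. At a −log10 q of at least 5 there were 2 among 14, beside 3.51% of all D5-and-control regions.

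At 4 of these 5 genes the strongest region was open in all 3 lists. Of all D5-and-control regions at folds of 10 and over, 0.176% were absent with GLI1, so this does not set the genes apart. At Tpm1 the strongest region had a fold of 50.6 in control and 64.8 with GLI1, at Slc8a1 13.7 and 20.4, at Actn2 19.8 and 17.0, and at Cacna1c 35.3 and 39.3. At Myl7 the D5 list held 1 region within 10 kb, which was control-kept, and 2 further control regions (folds 5.40 and 5.22) were absent with GLI1. These 2 were not in the D5 list, and 52.4% of all such D7 control regions were absent with GLI1.

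Second heart field genes, of the progenitor pool that adds to the heart tube, had 5 control-kept regions among 34 (14.7%; 6.45 to 30.1) and 5 GLI1-kept among 34, beside 5.42% and 10.9% over all genes. There were 2 control-kept among 24 at a −log10 q of at least 5, beside 3.51% of all D5-and-control regions. Fgf10, a growth factor gene of this field, had 2, the one described above and one at 118732491 to 118732698 with folds of 3.96 and 6.68, whereas the region at its beginning was open in all 3 lists, with 16.02 in control and 21.2 with GLI1. Isl1, which encodes a LIM homeodomain factor, had a region 4.24 kb from the gene (3.42 and 3.80) and 1 GLI1-kept region. Its strongest region had 28.1 in control and 40.4 with GLI1. Bmp7 (3.60 and 5.50) and Foxc1 (3.06 and 5.54) had 1 each, and that near Foxc1 lay 14 bases from a GLI1 region.

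Cardiac transcription factor genes had 4 among 56 (7.14%): Nkx2-5, described above, Prdm16 with 2 (D7 folds 4.14 and 6.12) and Tbx3 with 1 (3.42). GLI1-kept regions at these genes were 6 among 58 (10.3%). Over all genes the shares were 5.42% control-kept and 10.9% GLI1-kept. With a −log10 q of at least 5 required, cardiac transcription factor genes had 0 control-kept among 36. At that limit the share of all D5-and-control regions was 3.51%, so a count of 0 does not set these genes apart. Primitive streak and early mesoderm genes had 3 control-kept among 20 (interval of the share 5.24 to 36.0%) and 3 GLI1-kept among 21. The control-kept ones were at Mesp1, a factor of the earliest cardiac mesoderm, with 4.32 and 6.24, Lhx1 with 4.14 and 8.46, and Wnt3 with 3.06 and 4.67. The region near Mesp1 (chromosome 7, 79797063 to 79797671) shared 593 bases with its D5 region and lay 3.59 kb from the gene, and a GLI1 region began 1.10 kb away. BMP, FGF and Wnt signalling genes had 6 control-kept among 69 (8.70%), which included Id1 (3.06 and 5.78) and Id3 (3.06 and 5.60), targets of BMP signalling. GLI1-kept regions at the genes of this list were 6 among 68 (8.82%).

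The remaining lists had few, and their counts stand beside shares of 5.42% control-kept and 10.9% GLI1-kept regions over all genes, so more GLI1-kept than control-kept regions are found at genes in general. Smooth muscle, epicardial and fibroblast genes had 3 among 26, namely Prrx1, Tcf21 and Myh11, a smooth muscle myosin gene (3.96 and 3.61). Endothelial and blood genes had 3 among 21, at Tek (3.96 and 3.70), Tal1 and Lyl1 (3.06 and 4.88). Forkhead genes had 4 among 54, at Foxo3 (6.48 and 4.11), Foxp2 (6.48 and 4.88), Foxq1 (3.60 and 5.63) and Foxc1, against 12 GLI1-kept among 61. There were 0 control-kept among 35 at a −log10 q of at least 5, beside 3.51% of all D5-and-control regions. Neural progenitor genes had 3 among 34, at Pax3 (5.04 and 8.66), Sox1 (3.96 and 3.21) and Pax7 (2.88 and 4.36), against 9 GLI1-kept among 40. Paraxial mesoderm genes had 3 among 24, at Pax3, Foxc1 and Pax1 (3.06 and 4.79). Endoderm genes had 1 among 13, near Ttr, against 6 GLI1-kept among 20. Pluripotency genes had 1 among 21 (Tbx3), and housekeeping genes 1 among 13, near Eef1a1 (2.70 and 7.67). An excess of GLI1-kept regions was not found in every list. They were 6 among 25 at endothelial and blood genes and 3 among 26 at paraxial mesoderm genes. Smooth muscle, epicardial and fibroblast genes had 2 GLI1-kept among 25, pluripotency genes 0 among 20 and housekeeping genes 0 among 13.

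Over all 14 lists, with each of the 291 genes counted once, 37 of 406 D5-and-control regions were control-kept (9.11%; 6.68 to 12.3), and 59 of 426 D5-and-GLI1 regions were GLI1-kept (13.8%; 10.9 to 17.4). Over all genes these were 5.42% (5.08 to 5.78) and 10.9% (10.5 to 11.4). The median D7 fold of the 37 was 3.60, below the 4.14 of all control-kept regions with a gene.

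Across chromosomes the control-kept share of D5-and-control regions ran from 4.15% on chromosome 7 (52 of 1252; 3.18 to 5.41) to 7.74% on chromosome 14 (46 of 594; 5.86 to 10.2). The GLI1-kept share was higher than the control-kept share on each of the 19 chromosomes. The chromosomes come from the same pooled lists, of which the GLI1 list was the longer, so they are not repeated observations. Lists of equal length were not compared by chromosome.

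The median gap from a control-kept region to the nearest GLI1 region was 14.2 kb. There were 253 (23.7%) with a GLI1 region within 5 kb, 72 (6.74%) within 500 bases and 25 within 100 bases. What part shifts of peak limits between lists had in the class was not tested. For 17 regions the D5 region itself touched a GLI1 region elsewhere. The regions nearest to the limit of the rule were in Pip5k1b, 2 bases from a GLI1 region of fold 7.90 (D7 control fold 4.32), and near Ankrd1, 3 bases from one (5.22). Just outside it, a region near Pdzrn4 (5.58) shared 5 bases with a GLI1 region of fold 2.63, and one near Wwc1 (3.06) shared 13. On the D5 side, a control-kept region near Col5a1 (3.42) shared 1 base with a D5 region, whereas one near Trappc9 (3.78) missed a D5 region by 1 base and is not included.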

How the data were processed

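Open chromatin was measured by ATAC-seq in 8 libraries, deposited as 3 peak lists, 1 a group. Per the submitters' processing notes the authors used Bowtie2 2.3.2, SAMtools 1.5, Picard, MACS2 2.1.1 and mm10; settings were not given in the sources used here. Each deposited list gives, for every peak, a fold enrichment (a ratio), a −log10 p (not used), a −log10 q, a score of 10 times the −log10 q and the offset of the summit in bases. The authors' folds served to describe and bin regions within a list. At D5 peaks began at 124 bp in width, at D7 at 200 bp. Read totals were not used here, so depth is unknown, and Wilson and difference (Newcombe) 95% intervals cover counting error only.

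Peaks were merged in Python 3.11.15 (pandas 2.3.3), a merged region took the values of its peak of highest fold, and the overlaps were tested on simulated data and checked with bedtools 2.31.1, which gave the same 1069 regions. Genes are 21883 protein-coding RefSeq intervals (GRCm38.p6), assigned by summit within 100 kb. With 1 list a group no test between conditions could be run. The genome sequence was not used here, so motifs were searched in promoter windows in place of regions. Genes were named by rule: the 12 regions of highest D7 control and 8 of highest D5 fold, the 10 genes with most regions, the 8 strongest at gene ends, up to 4 genes a list, the regions nearest the limit of the rule, and Gli1, Ptch1, Hhip and Foxf1; start sites were added after their values were seen. One region that this rule names is not reported here. Regions and gene lists were chosen with earlier results of these data known. The alternatives were other overlaps, a stricter −log10 q, equal list lengths, sex chromosomes and other assignments to genes.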

Additional observations from a re-analysis of the deposited data

How the results depend on the processing

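No paired analysis was possible because the 3 lists carry no replicate numbers, and no single library could be taken out. The number of control-kept regions, 1069, ran from 766 to 1206 when 50% of a region had to be shared, a GLI1 region within 500 bases counted as present, the summit had to lie in a D5 region, lists had equal lengths, or X and Y were included. At a −log10 q of at least 5 there were 460, and control-kept minus GLI1-kept regions came to −591 in place of −1134. GLI1-kept regions were more numerous under all 6 of these alternatives. The share of D5-and-control regions absent with GLI1, 6.32%, was 8.59% with 50% shared, 5.89% with the 500 bases, 3.51% at the stricter −log10 q, 7.13% with equal lengths and 5.26% with the summit rule. The share at gene ends, 7.86%, was 5.65% at the stricter −log10 q, 17.5% within 5 kb and 5.60% with start sites (an alternative chosen after seeing the data); it was below that of GLI1-kept regions under every alternative run. Regions at listed genes numbered 37, and 16 at the stricter −log10 q, which holds fewer regions by construction; the cause of the other changes was not tested. The motif search in 100 bases around summits was not run. Depth is unknown, and most control-kept folds lie near the lowest of the list, so absence from the GLI1 list may mean a signal under its calling threshold.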
